A study of Mus musculus with 6 samples.

Results

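Heat shock chaperones were examined here as 10 genes: the mitochondrial folding chamber genes Hspd1 and Hspe1, the HSP70 genes Hspa8, Hspa1a and Hspa1b, the HSP90 genes Hsp90aa1 and Hsp90ab1, the HSP110 gene Hsph1, the HSP40 gene Dnajb1, and Hsf1, which encodes the transcription factor of the heat shock response. They were chosen by gene symbol, and all 10 were found among the 24940 genes of the expression table. Bone marrow-derived macrophages (BMMs), grown from mouse marrow with M-CSF, are cells that can become osteoclasts, the cells that resorb bone, when the cytokine RANKL is added. RNA was sequenced from 6 libraries, 2 for each of 3 conditions, and every culture was kept in M-CSF (30 ng/mL) over the 3 days. The -R cultures received no RANKL, the +R cultures received RANKL at 100 ng/mL, and the R+LE cultures received RANKL at 100 ng/mL with LE, a methanol extract of the leaves of the shrub Abeliophyllum distichum, at 10 μg/mL. The labels give C57BL/6 mice aged 6 to 8 weeks, whereas the study's methods name ICR mice, and neither says whether replicates came from separate animals, so p-values measure the spread between these libraries, which may be technical.

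Heat shock proteins are chaperones: they bind unfolded or partly folded proteins and help them to fold, to cross membranes or to be degraded. HSP70 proteins take up clients with the help of J-domain (HSP40) partners and of nucleotide exchange factors such as HSP110. HSP90 proteins mature kinases and steroid receptors, and HSP60 with its lid HSP10 folds proteins inside mitochondria. Under proteotoxic stress HSF1 binds heat shock elements, which are alternating GAA and TTC units, and raises transcription of many of these genes, while Hspa8 and Hsp90ab1 are the constitutive members in most cells.

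RANKL raised 4 of the 10 genes and lowered 2, and LE on top of RANKL changed 1. Levels were taken in RPKM, reads scaled to transcript length in kilobases and to the mapped reads of the library, and differences as log2 changes, which are log2 fold changes on the log2(RPKM + 0.5) scale from limma, fitted over 11595 genes in all 6 libraries. A gene passed the test at a Benjamini-Hochberg adjusted p below 0.05 over all these genes, and was called if it also changed at least 2-fold. Between +R and -R, 45.4% of all tested genes passed the test (23.9% higher and 21.5% lower), and 52.1% had an unadjusted p below 0.05. With LE, between R+LE and +R, 12% passed (5.19% higher and 6.86% lower), and between R+LE and -R, 34.3% passed (15.3% higher and 19% lower). The share of members, and of genes in the further lists below, that passed in each comparison is to be read against these values. Any pair of these comparisons shares the libraries of 1 condition, so none is an independent repeat of another. For 1 gene at 2 libraries a group, no exact permutation p (two-sided) below 0.33 can be had, so the calls rest on the spread that limma shares across genes.

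Each library held between 29390210 and 34846383 mapped reads, worked out from the size of 1 read in the RPKM values, of which 74.2% to 80.7% lay on genes. Rn45s, the ribosomal RNA precursor, took 4.97% to 6.83% of gene reads without RANKL and 10.9% to 13.5% in the other libraries. The 7 macrophage markers were all present. Their levels summed to 1670 and 1749 RPKM in -R, against 835 to 1015 RPKM in the 4 libraries with RANKL. Of these 7 genes, 6 passed lower between +R and -R, and 5 passed lower and 1 higher between R+LE and -R. Between R+LE and +R 2 of them passed higher and none lower. The 10 osteoclast markers summed to 43.4 and 45.0 RPKM in -R, rose to 2222 and 1951 RPKM in +R and stood at 402 and 346 RPKM in R+LE. Markers of T cells, B cells, erythroid cells and dendritic cells summed to at most 2.06 RPKM in any library. Neutrophil markers summed to 15.6 to 17.3 RPKM in -R and 0.592 to 2.53 elsewhere, almost all from S100a8 and S100a9, and megakaryocyte markers to 120.2 and 124.3 RPKM in -R and 6.43 to 18.6 elsewhere, almost all from Pf4. Stromal markers summed to 8.22 and 9.18 RPKM in R+LE and 11 to 16.9 RPKM elsewhere, and endothelial markers to 0.717 and 0.650 RPKM in R+LE and 1.99 to 2.39 RPKM elsewhere. Between R+LE and +R 2 of 3 tested stromal markers passed lower, as did the 1 tested endothelial marker, Kdr. The summed neutrophil, megakaryocyte and macrophage markers were thus lower in both RANKL conditions, and the stromal and endothelial ones lowest with LE. Their part in the results below was not tested. The neutrophil, megakaryocyte, stromal and endothelial sums rest on few genes of their lists. In any library Ly6g reached at most 0.334 RPKM, Itga2b 0.07, Pdgfrb 0.538 and Cdh5 0.686. These sums therefore do not show that such cells were present. In bulk RNA, fewer cells of a type and less RNA per cell cannot be told apart.

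Promoter windows from RefSeq (GRCm38.p6, the same assembly as mm10; 250 bases before to 50 after the transcript start) were on hand for 6 of the 10 members, Hspd1, Hspe1, Hspa1a, Hspa1b, Hsph1 and Dnajb1. Both strands were searched for the heat shock element units GAANNTTC and TTCNNGAA, each its own reverse complement, and for the longer forms of 3 units, GAANNTTC followed by NNGAA and its reverse complement, TTCNNGAA followed by NNTTC, which contain the shorter ones. Of all 32851 windows in that set, 15.1% held at least 1 of the short forms and 0.603% at least 1 of the long forms. The windows shown here are those that held a match, and capitals mark the matched letters. Hspd1 and Hspe1 lie head to head on chromosome 1, with their starts 216 bp apart, so that their windows share 285 bases. The window is shown on the strand of Hspe1 (+, chr1:55087898-55088197), where 4 units in a row begin 89 bases before the start of Hspe1 and, read on the other strand, 144 bases before the start of Hspd1.
Hspe1: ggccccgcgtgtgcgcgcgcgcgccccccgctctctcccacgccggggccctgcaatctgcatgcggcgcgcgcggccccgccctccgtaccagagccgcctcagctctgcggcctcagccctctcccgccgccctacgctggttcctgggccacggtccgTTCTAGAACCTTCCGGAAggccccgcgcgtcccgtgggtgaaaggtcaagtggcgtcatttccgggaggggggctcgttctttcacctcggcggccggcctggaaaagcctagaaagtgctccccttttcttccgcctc
The windows of Hspa1a (minus strand, chr17:34972107-34972406) and Hspa1b (minus strand, chr17:34959189-34959488) are shown because these genes are near copies of each other. They were identical at 296 of 300 positions, each with a pair of units 104 bases before the start.
Hspa1a: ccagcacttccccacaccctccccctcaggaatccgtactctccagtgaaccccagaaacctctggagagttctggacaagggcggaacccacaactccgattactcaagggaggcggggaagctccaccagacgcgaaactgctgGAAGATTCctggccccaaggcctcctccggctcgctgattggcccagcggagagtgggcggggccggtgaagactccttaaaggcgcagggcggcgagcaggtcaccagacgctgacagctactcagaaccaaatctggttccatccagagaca
Hspa1b: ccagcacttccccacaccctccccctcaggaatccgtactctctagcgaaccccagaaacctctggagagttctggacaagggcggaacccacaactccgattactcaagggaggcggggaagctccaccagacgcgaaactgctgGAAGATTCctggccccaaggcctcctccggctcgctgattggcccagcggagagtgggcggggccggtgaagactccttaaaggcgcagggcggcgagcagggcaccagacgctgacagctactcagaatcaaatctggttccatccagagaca
The window of Hsph1 (minus strand, chr5:149636266-149636565) held a pair of units 54 bases before the start and a run of 3 units that begins 16 bases into the transcript.
Hsph1: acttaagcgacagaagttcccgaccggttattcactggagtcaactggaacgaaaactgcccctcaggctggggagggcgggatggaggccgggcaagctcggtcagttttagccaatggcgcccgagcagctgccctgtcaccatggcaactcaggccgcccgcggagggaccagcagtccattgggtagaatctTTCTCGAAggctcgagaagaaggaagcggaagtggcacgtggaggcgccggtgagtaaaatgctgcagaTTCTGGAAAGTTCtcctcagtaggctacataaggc
No match to these letters lay in the window of Dnajb1. Dnajb1, Hsph1 and Hspd1 each had 2 windows in that set, and only the one at the start of the deposited transcript was read for each gene. A match is a string of letters and was not measured as a bound site.

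**Figure D1:**
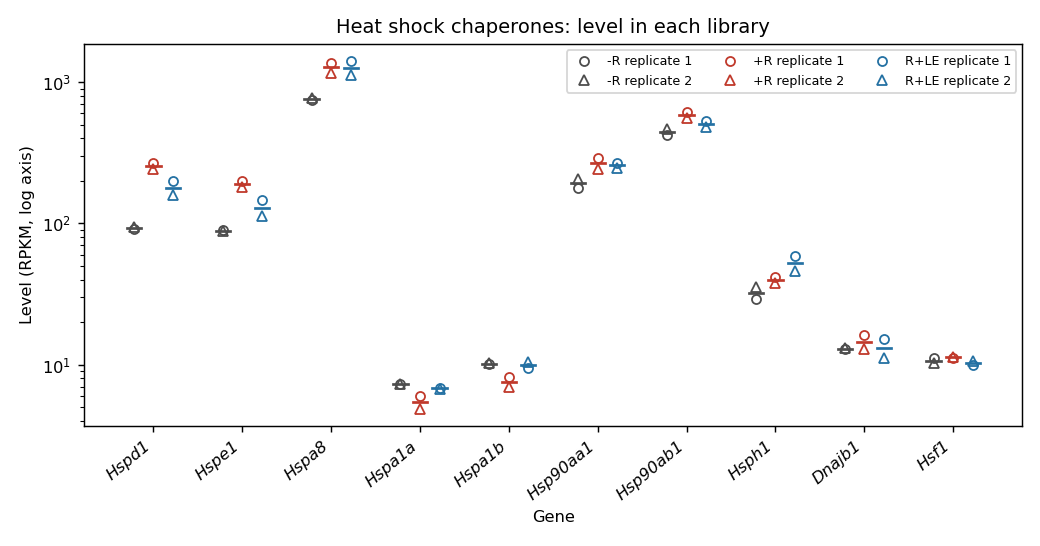
Level of each of the 10 genes in RPKM (log axis) in each library; circles are replicate 1, triangles replicate 2 and bars the mean of the 2 libraries of a condition. Hspa8 and Hsp90ab1 had the highest levels in every condition, while Hspa1a, Hspa1b, Hsf1 and Dnajb1 stayed under 20 RPKM.

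Levels per length spanned over 2 orders of magnitude. Hspa8, the constitutive cytosolic HSP70, had the highest mean over the 6 libraries, at 1095 RPKM, and alone took 0.155% to 0.293% of all mapped reads. Hsp90ab1 followed at 510.5 RPKM and Hsp90aa1 at 238 RPKM, then Hspd1 at 176 RPKM and Hspe1 at 136 RPKM. Hsph1 averaged 41.5 RPKM, Dnajb1 13.6, Hsf1 10.7, Hspa1b 9.24 and Hspa1a 6.52 RPKM. Within a condition, the levels of neighbours in this order overlapped for Hspd1 with Hsp90aa1 in +R and for Hsf1 with Hspa1b in -R and R+LE. Together the 10 genes took 0.360% and 0.389% of all mapped reads in -R, and 0.624%, 0.544%, 0.591% and 0.496% in the +R and then the R+LE libraries. In the plot of levels, the +R and R+LE values of replicate 1 tended to lie above those of replicate 2: 9 of the 10 members were higher in replicate 1 of +R and 8 in replicate 1 of R+LE, against 65.3% and 69.1% of all tested genes. The share of reads on genes moved the same way, at 80.7% against 76.3% in +R and 80.5% against 74.2% in R+LE, and its part in the levels was not tested.

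The mitochondrial pair had the largest rise of the members after RANKL. Hspd1 encodes HSP60, the folding chamber of the mitochondrial matrix, on chromosome 1 of mm10 from 55077834 to 55087932. It was at 91.2 and 93.9 RPKM in -R, 269 and 242 RPKM in +R, and 200 and 158 RPKM in R+LE. The 3 conditions did not overlap, with R+LE between the others. From -R to +R it rose 2.75-fold, a log2 change of 1.46 (SE, the standard error, 0.16, limma adjusted p = 3.58e-06), and it was called. From +R to R+LE its log2 change was -0.52, with a 95% interval from -0.87 to -0.17, and the limma adjusted p of 0.0543 missed the threshold. In R+LE it remained 1.92-fold above -R (log2 change 0.94, limma adjusted p = 0.000389). Hspe1, which encodes the HSP10 lid of the same chamber, lies on chromosome 1 from 55088148 to 55091317. It was at 89.1 and 88.1 RPKM in -R, 200.5 and 180 RPKM in +R, and 146 and 112 RPKM in R+LE, again without overlap and with R+LE between the others. It rose 2.14-fold with RANKL (log2 change 1.10, SE 0.17, limma adjusted p = 6.61e-05) and was called as well. With LE it fell by 0.57 on the log2 scale (SE 0.17, limma adjusted p = 0.0358), the only member to pass the test in that comparison, and less than 2-fold. Against -R it stayed 1.44-fold higher in R+LE (limma adjusted p = 0.0223).

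Hspd1 and Hspe1, which share the promoter region shown above, stood at a ratio (Hspd1 over Hspe1 level) of 1.02 and 1.07 in -R, and of 1.34, 1.35, 1.37 and 1.41 in the +R and then the R+LE libraries. The ratio was thus higher in all 4 libraries with RANKL than in both without. At the shared end, 96 bp of the Hspe1 exons overlap an annotated Hspd1 exon on the opposite strand, and reads there were not separated by strand. The rise of both genes with RANKL passed under each alternative run, whereas the fall with LE did not. The fall of Hspd1 passed by voom on the recovered reads (limma adjusted p = 0.0150), at a minimum mean of 1 RPKM (0.0448) and with a replicate block (0.0175). It also passed after centring on the median (0.0312), after quantile normalization (0.00355) and with a total that left out Rn45s (0.0131). Hspe1 passed in all of these settings as well. Hspd1 missed the threshold with no filter (0.154) and with only the compared groups (0.163). Without R+LE replicate 1 the log2 change was -0.69 for Hspd1 and -0.76 for Hspe1. The fall of Hspe1 missed the threshold without each other library in turn, with adjusted p-values of 0.117 and 0.118 without -R replicates 1 and 2, 0.251 and 0.0704 without +R replicates 1 and 2, and 0.122 without R+LE replicate 2, where the log2 change was -0.38. Its difference between R+LE and -R missed it at 0.150 and 0.152 without -R replicates 1 and 2, and at 0.0856 without R+LE replicate 1, where the log2 change was 0.34.

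**Figure D2:**
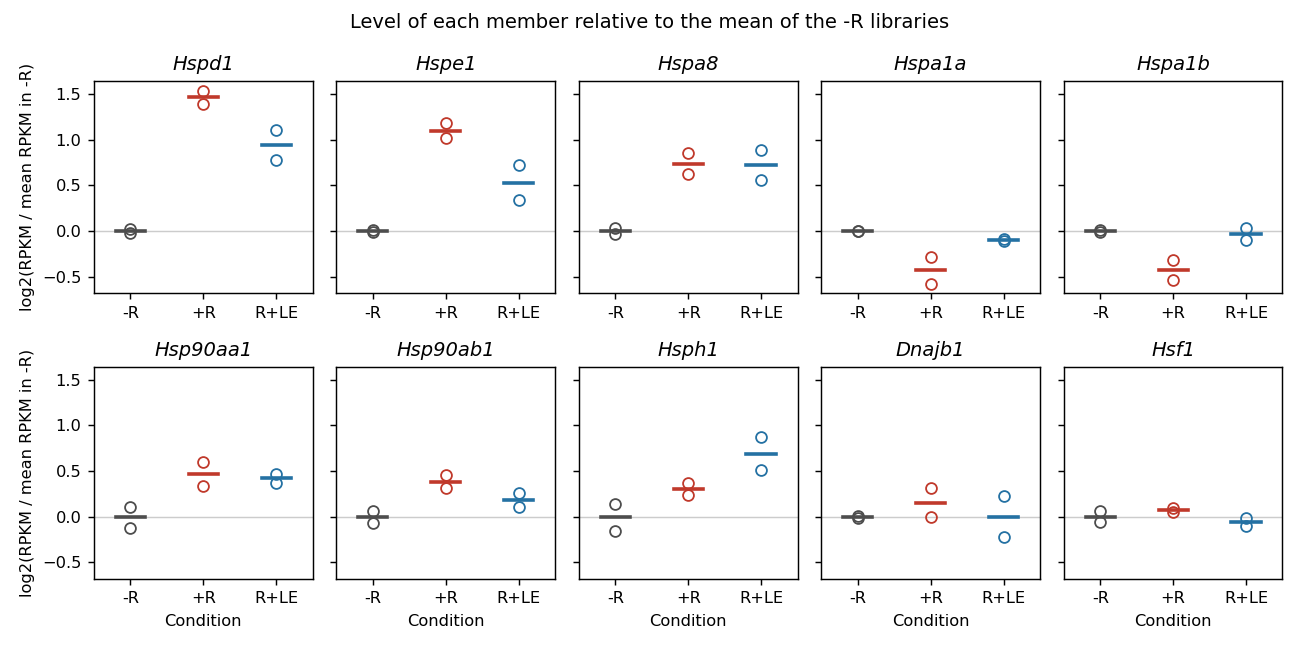
Level of each gene in each library (open circles) as log2 of its RPKM over the mean RPKM of the -R libraries, by condition; bars are means of the 2 log2 values. Hspd1 and Hspe1 lie highest in +R and between the other conditions in R+LE, Hspa8 overlaps between +R and R+LE, and Hspa1a and Hspa1b are lowest in +R.

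Among the HSP70 genes the constitutive and the inducible members went opposite ways with RANKL. Hspa8 encodes HSC70, which folds new proteins and uncoats clathrin vesicles, on chromosome 9 from 40801273 to 40805199. It was at 741 and 775 RPKM in -R, 1370.3 and 1167 RPKM in +R, and 1401 and 1117 RPKM in R+LE. Both RANKL conditions lay above -R without overlap, and they overlapped each other. It rose 1.67-fold with RANKL (log2 change 0.74, SE 0.20, limma adjusted p = 0.00802). With LE the log2 change was -0.02, with a 95% interval from -0.45 to 0.42 (limma adjusted p = 0.98), and its sign changed without +R replicate 1 (0.10) and without R+LE replicate 2 (0.15). Against -R it was 1.65-fold higher in R+LE (limma adjusted p = 0.0126). The rise with RANKL missed the threshold without -R replicate 1 (0.125), -R replicate 2 (0.0917) or +R replicate 1 (0.122), and the difference between R+LE and -R without -R replicate 1 (0.169) or -R replicate 2 (0.124). With no filter on low values the adjusted p-values were 0.11 and 0.142. After quantile normalization both differences passed but were smaller, at 0.32 with RANKL and 0.48 between R+LE and -R on the log2 scale.

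Hspa1a and Hspa1b encode the stress-inducible HSP70, lie on chromosome 17 (34969359 to 34972156 and 34956429 to 34959238), with their starts 12918 bp apart, and are textbook targets of HSF1. Hspa1a was at 7.29 and 7.28 RPKM in -R, 6.00 and 4.89 RPKM in +R, and 6.88 and 6.76 RPKM in R+LE. Hspa1b was at 10.1 and 10.3 RPKM in -R, 8.15 and 7.0 RPKM in +R, and 9.52 and 10.4 RPKM in R+LE. In both genes the +R libraries were the lowest, below those of both other conditions. With RANKL Hspa1a fell by 0.39 on the log2 scale (SE 0.14, limma adjusted p = 0.0340) and Hspa1b fell by 0.41 (SE 0.14, adjusted p = 0.0254). With LE the log2 changes were 0.31 for Hspa1a (95% interval 0.0014 to 0.61, limma adjusted p = 0.211) and 0.38 for Hspa1b (95% interval 0.083 to 0.67, adjusted p = 0.0990), and neither passed, although Hspa1b did after centring on the median (0.0417). Against -R the log2 changes in R+LE were -0.09 and -0.03, with 95% intervals from -0.39 to 0.21 and from -0.33 to 0.27. The order of the levels was therefore not the one of Hspa8, whose level was 42.6 and 44.2 times the sum of the pair in -R, but 96.9 and 98.1 times in +R and 85.4 and 65.0 times in R+LE.

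The pair cannot be fully separated, since 47.1% of the 100 nt stretches of the Hspa1a transcript, the length of 1 read, also occur in Hspa1b, and 564 bp of its exon overlap a gene on the opposite strand, Gm20481. Their summed level, which depends little on that split, was 17.4 and 17.5 RPKM in -R, dropped to 14.1 and 11.9 RPKM in +R and was 16.4 and 17.2 RPKM in R+LE. For Hspa8, 63.4% of such stretches also occur in other transcripts, chiefly the processed pseudogene Gm15459. For Hsp90aa1 the share was 47.5%, for Hspd1 26.9% and for Hspe1 22.4%, while Hsp90ab1, Hsph1, Dnajb1 and Hsf1 had no such stretch. The fall of Hspa1a with RANKL missed the threshold without -R replicate 1 (0.119), -R replicate 2 (0.112) or +R replicate 2 (0.328, with -0.26 on the log2 scale), as did that of Hspa1b (0.0934, 0.105 and 0.238 in the same order).

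The HSP90 genes had smaller differences than the mitochondrial pair. Hsp90aa1 encodes the inducible cytosolic HSP90, on chromosome 12 from 110691036 to 110696395. It was at 177 and 207 RPKM in -R, 290.2 and 242 RPKM in +R, and 266 and 248 RPKM in R+LE, with both RANKL conditions above -R. With RANKL it rose 1.39-fold (log2 change 0.47, SE 0.17, limma adjusted p = 0.0339). Its log2 change with LE was -0.04, with a 95% interval from -0.41 to 0.32, and the sign changed under another scaling (0.01 after centring on the median). Against -R the value in R+LE was 0.43 (limma adjusted p = 0.0657). The rise with RANKL missed the threshold with any -R or +R library left out, at 0.297 and 0.0878 without -R replicates 1 and 2 and at 0.316 and 0.0540 without +R replicates 1 and 2, whereas the value against -R in R+LE passed without R+LE replicate 2 (0.0304) and after centring on the median (0.0130).

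Hsp90ab1, the constitutive cytosolic HSP90, lies on chromosome 17 from 45567778 to 45573261. It was at 425 and 465 RPKM in -R, 609 and 553 RPKM in +R, and 531 and 479.7 RPKM in R+LE, so that the conditions did not overlap and R+LE lay between the others. Its log2 change with RANKL was 0.38 (SE 0.18, limma adjusted p = 0.0906), which did not pass in the fit of all libraries but did without R+LE replicate 1 (0.0169), without R+LE replicate 2 (0.0163) and after centring on the median (0.0309). It was 0.18 after quantile normalization (0.197), and the adjusted p was 0.214 to 0.420 with a -R or +R library left out. With LE it was -0.20, with a 95% interval from -0.58 to 0.18. The ratio of Hsp90ab1 to Hsp90aa1 level was 2.41 and 2.25 in -R, 2.10 and 2.28 in +R, against 2.0 and 1.93 in R+LE.

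Hsph1 had its highest level with LE. It encodes HSP110, a nucleotide exchange factor for HSP70, on chromosome 5 from 149616845 to 149636315. It was at 28.9 and 35.5 RPKM in -R, 41.6 and 38.1 RPKM in +R, and 59.1 and 45.8 RPKM in R+LE, and the conditions did not overlap. Its level in R+LE was 1.61-fold above -R (log2 change 0.69, SE 0.16, limma adjusted p = 0.00383), or at an adjusted p of 0.0993 without -R replicate 1. Neither step passed alone: the log2 change was 0.31 with RANKL (95% interval -0.04 to 0.65, limma adjusted p = 0.136) and 0.38 with LE (95% interval 0.04 to 0.73, adjusted p = 0.160). The step with RANKL passed after quantile normalization (0.0174) and with a total that left out Rn45s (0.0202). The step with LE passed without R+LE replicate 2 (0.0321) and after centring on the median (0.0492).

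Dnajb1 and Hsf1 did not pass in any comparison. Dnajb1 encodes the HSP40 partner that hands clients to HSP70, on chromosome 8 from 83608175 to 83612653. It was at 12.9 and 13.1 RPKM in -R, 16.2 and 12.9 RPKM in +R, and 15.2 and 11.1 RPKM in R+LE, and all conditions overlapped. Its log2 change was 0.15 with RANKL (95% interval -0.20 to 0.50), but -0.01 without +R replicate 1, and -0.15 with LE (95% interval -0.50 to 0.20), but 0.01 without +R replicate 1 and 0.07 without R+LE replicate 2. Hsf1, on chromosome 15 from 76477362 to 76501155, was at 11.1 and 10.2 RPKM in -R, 11.1 and 11.4 RPKM in +R, and 9.92 and 10.6 RPKM in R+LE. Between 711 and 809 reads lay on it in each library. Its log2 change was 0.08 with RANKL (95% interval -0.21 to 0.36) and -0.13 with LE (95% interval -0.41 to 0.16). The level of Hsf1 RNA does not measure the activity of HSF1 protein, which is set after translation.

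**Figure D3:**
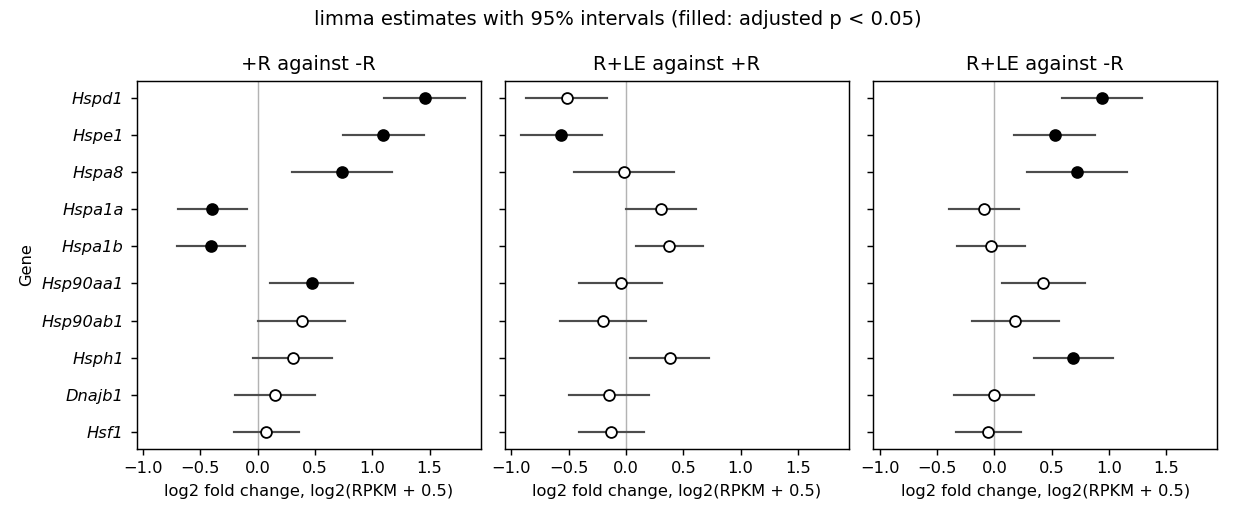
Log2 fold change of each gene in the 3 comparisons from limma on log2(RPKM + 0.5), with 95% intervals; filled points passed an adjusted p of 0.05 over all genes tested. With RANKL 4 points are filled above 0 and 2 below, with LE 1 is filled, for Hspe1, and between R+LE and -R 4 are filled, all above 0.

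Counted over the 10 genes, 4 passed higher and 2 lower between +R and -R, where 23.9% of all tested genes passed higher and 21.5% lower. The median log2 change was 0.35 against 0.05 over all tested genes. Only Hspd1 and Hspe1 were called at 2-fold, both higher, where 15.5% of all tested genes were called (6.58% higher and 8.92% lower). An unadjusted p below 0.05 was seen for 7 members, against 52.1% of all tested genes. With LE none passed higher and 1 lower, where 5.19% of all tested genes passed higher and 6.86% lower. The median there was -0.09 against -0.05, and 5 members had an unadjusted p below 0.05, against 23.3% of all tested genes. None was called at 2-fold in that comparison by limma or by voom on the recovered reads, against 3.23% of all tested genes (1.46% higher and 1.78% lower). In R+LE against -R, 4 passed higher, Hspd1, Hspe1, Hspa8 and Hsph1, and none lower, where 15.3% of all tested genes passed higher and 19% lower. The median there was 0.30 against -0.01, and 5 members had an unadjusted p below 0.05, against 43.5% of all tested genes. None was called at 2-fold there in the limma fit described above or by voom, against 10.3% of all tested genes (3.92% higher and 6.36% lower), but Hspd1 reached 2-fold without R+LE replicate 2 (log2 change 1.11), after quantile normalization (1.02) and with a total that left out Rn45s (1.06). The libraries of the compared conditions did not overlap for 6 members higher and 2 lower with RANKL, for 3 higher and 4 lower with LE, and for 6 higher and 1 lower between R+LE and -R. Among all tested genes 75.2% did not overlap with RANKL (40.3% higher and 35% lower), 49% with LE (19.5% higher and 29.5% lower) and 65.5% between R+LE and -R (31.2% higher and 34.3% lower). The count of members that passed with RANKL, 6, was 2 without -R replicate 1, 2 without -R replicate 2 and 3 without +R replicate 2. The count with LE was 0 without either -R or either +R library and 2 without R+LE replicate 1, and the count between R+LE and -R, 4, was 1 without -R replicate 1 and 2 without -R replicate 2.

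To place these genes in their pathway, 9 further lists of chaperone and stress genes were read from the same fit. Over all tested genes 23.9% passed higher and 21.5% lower with RANKL, and 5.19% higher and 6.86% lower with LE. The cytosolic folding chamber TRiC, which folds actin and tubulin, with its partner prefoldin had 10 of 14 tested genes higher in +R than in -R and none lower, with a median log2 change of 0.49. Among them the subunit gene Cct6a went from 87.5 and 86.9 RPKM to 166 and 156 RPKM, a log2 change of 0.88 (limma adjusted p = 0.000521), and Cct2 had 0.78. No gene of this list passed with LE (0 of 14, also 0 at an unadjusted p below 0.05 and 0 by voom). The median was -0.19, against -0.05 over all tested genes, and all 14 log2 changes lay below 0, from -0.30 to -0.07. The count with RANKL was 5 without -R replicate 1, 4 without -R replicate 2 and 6 without +R replicate 2, and the count with LE was 2 without R+LE replicate 1.

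Mitochondrial chaperones and proteases, other than the HSP60 pair, had 8 of 13 genes higher with RANKL and none lower, with a median of 0.55. Of all tested genes 23.9% passed higher and 21.5% lower with RANKL. Hspa9, the mitochondrial HSP70, went from 75.4 and 81.3 RPKM in -R to 151 and 139 RPKM in +R and was at 116 and 102 RPKM in R+LE, a log2 change of 0.88 with RANKL (limma adjusted p = 0.000217). The median with LE was -0.39, against -0.05 over all tested genes. With LE, 2 of the 13 passed, both lower, where 6.86% of all tested genes passed lower. They were Trap1, the mitochondrial HSP90, with 47.5 and 43.4 RPKM in +R and 35.6 and 27.3 RPKM in R+LE (log2 change -0.53, limma adjusted p = 0.0328), and the protease Htra2, with 57.2 and 51.3 RPKM in +R and 41.0 and 33.1 RPKM in R+LE (-0.55, adjusted p = 0.0245). In both genes R+LE lay below +R without overlap. The count with RANKL was 5 without +R replicate 1. The count with LE was 0 without either -R library, +R replicate 1 or R+LE replicate 2, was 1 without +R replicate 2, was 6 without R+LE replicate 1, and was 5 by voom.

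Partners of HSP90 and HSP70 had 6 of 21 higher and 2 lower in +R than in -R, against 23.9% and 21.5% of all tested genes. Their median was 0.19. Fkbp4, an immunophilin that works with HSP90 on steroid receptors, went from 46.1 and 42.0 RPKM to 92.6 and 90.8 RPKM, a log2 change of 1.05 (limma adjusted p = 5.28e-05). Ahsa1, which speeds the ATPase of HSP90, fell by 0.87 on the log2 scale, from 148 and 150.2 RPKM in -R to 84.2 and 78.2 RPKM in +R (adjusted p = 0.000316), and stayed at 92.3 and 74.1 RPKM in R+LE. Bag3, an HSP70 partner in selective autophagy, fell by 0.60, from 18.2 and 20.3 RPKM to 12.6 and 12.5 RPKM (adjusted p = 0.00219). With LE only Bag2, an inhibitor of the ubiquitin ligase CHIP, passed in this list, at 2.16 and 2.10 RPKM in +R and 3.90 and 3.61 RPKM in R+LE (log2 change 0.69, adjusted p = 0.00762), or 0.0649 with no filter on low values. The count with RANKL, 8 in both directions, was 5 without -R replicate 1, -R replicate 2 or +R replicate 1, and the count with LE was 2 without R+LE replicate 1.

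J-domain partners had 4 of 15 higher and 2 lower with RANKL, with a median of 0.05, and 3 in all passed without -R replicate 1. The shares over all tested genes with RANKL were 23.9% higher and 21.5% lower. Dnaja1, an HSP70 partner, rose by a log2 change of 0.66 (limma adjusted p = 0.00186). Dnajb4 fell by 1.08 on the log2 scale, from 6.26 and 6.01 RPKM to 2.70 and 2.55 RPKM (adjusted p = 0.000103). With LE 1 of the 15 passed, Dnajb14, an HSP40 of the ER membrane, which fell by 0.54 (adjusted p = 0.0144), or at an adjusted p of 0.141 without +R replicate 2. The count with LE was 4 without R+LE replicate 1 and 2 without R+LE replicate 2. Of the other HSP70 and HSP110 genes, 1 of 5 passed with RANKL: Hspa4l, of the HSP110 family, rose from 4.2 and 4.92 RPKM to 10.4 and 10.4 RPKM (log2 change 1.11, adjusted p = 9.5e-06). None of the 5 passed with LE, nor at an unadjusted p below 0.05 or by voom. The count with RANKL was 2 without +R replicate 1 or R+LE replicate 2, and 2 by voom.

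Small heat shock proteins were low, with 5 of 10 genes above the filter, and 1 of these 5 passed with RANKL: Hspb6 was at 1.24 and 1.13 RPKM in -R and 2.44 and 2.62 RPKM in +R (log2 change 0.85, limma adjusted p = 0.000693). None of the 5 passed with LE (2 at an unadjusted p below 0.05, 0 by voom). Of the heat shock factors and their regulators, 3 of 7 were above the filter, and Hsf4 fell with RANKL from 1.22 and 1.42 RPKM to 0.382 and 0.542 RPKM (log2 change -0.92, adjusted p = 0.00183). None of the 3 passed with LE (1 at an unadjusted p below 0.05, 0 by voom). For these short lists the counts moved by at most 2 genes when single libraries were left out. ER chaperones had 3 of 18 higher with RANKL and none lower, with a median of 0.09, and 6 without either R+LE library. The ER stress gene Herpud1 had the largest rise in that list, from 4.27 and 3.88 RPKM to 14.5 and 13.7 RPKM (log2 change 1.68, adjusted p = 1.41e-07), and Hsp90b1, the HSP90 of the ER, rose by 0.92 (adjusted p = 0.000739). None of the 18 passed with LE, at an unadjusted p below 0.05 or by voom.

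Immediate early genes, which also answer to serum and to handling of cells, had 2 of 13 higher and 9 lower with RANKL. Their median log2 change was -1.69, so that, like Hspa1a and Hspa1b, most were lower in +R. The log2 changes of Hspa1a and Hspa1b, -0.39 and -0.41, were smaller than that median. The 2 higher were Junb (log2 change 1.29, limma adjusted p = 3.36e-06) and Egr2 (0.76, adjusted p = 0.00109). Atf3, a stress-induced transcription factor, went from 47.7 and 52.2 RPKM in -R to 2.56 and 1.85 RPKM in +R and was at 6.00 and 4.65 RPKM in R+LE. It fell by 4.23 on the log2 scale with RANKL (limma adjusted p = 2.53e-11) and rose by 1.11 with LE (adjusted p = 0.000312). With LE 3 of the 13 passed higher and 2 lower, with a median of 0.03. The 2 lower were Egr2 (log2 change -1.50, limma adjusted p = 1.46e-05) and Egr1 (-1.14, adjusted p = 0.000543). In R+LE against -R 1 passed higher and 10 lower, with a median of -1.51, whereas Hspa1a and Hspa1b lay within 0.1 log2 units of -R there. The part of these genes in the levels of Hspa1a and Hspa1b was not tested.

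**Figure D4:**
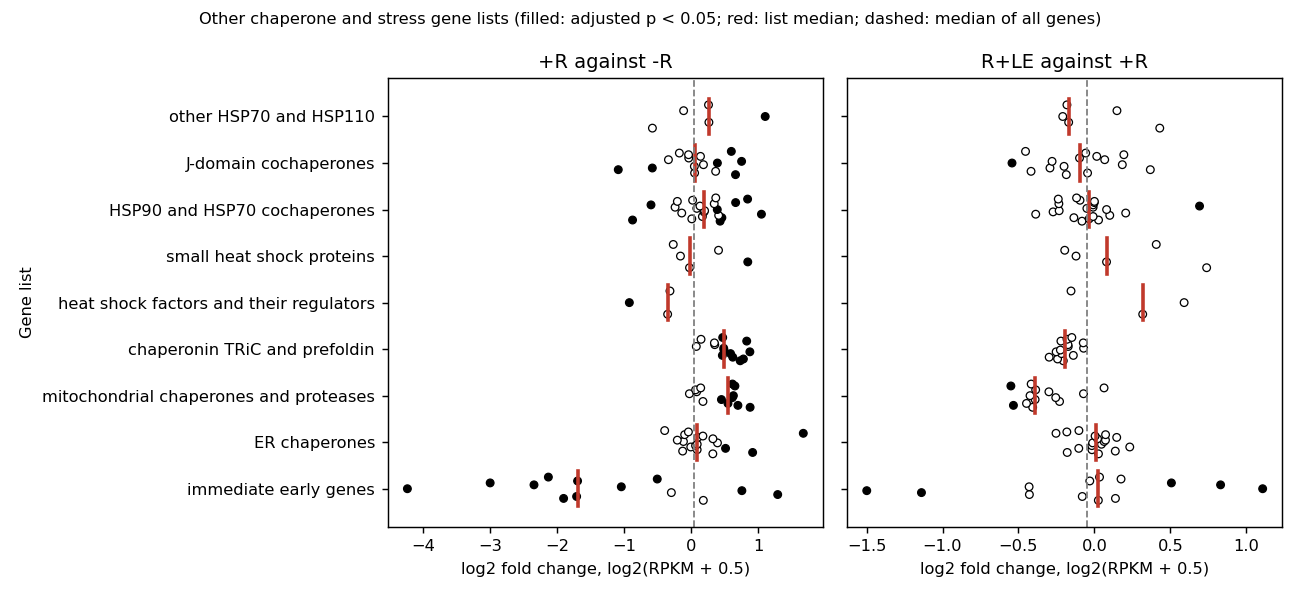
Log2 fold change of every tested gene (points; filled where the adjusted p is below 0.05) in 9 further lists, with the list median in red and the median over all genes as a dashed line, between +R and -R (left) and between R+LE and +R (right). All 14 genes of the TRiC list lie to the right of 0 with RANKL and to the left of 0 with LE, where none is filled. The mitochondrial list has the lowest median with LE, -0.39.

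Set against -R, the lists had in R+LE 4 of 14 genes higher for TRiC and prefoldin and 1 of 13 for the mitochondrial list. Partners of HSP90 and HSP70 had 6 of 21 higher and 2 lower, and J-domain partners 3 of 15 higher and 2 lower. ER chaperones had 2 of 18 higher and 1 lower. Over all tested genes 15.3% passed higher and 19% lower in this comparison. Hspa4l passed higher with 0.90 on the log2 scale (limma adjusted p = 0.000115) as 1 of 5 other HSP70 and HSP110 genes, Hspb6 with 0.93 (0.000467) as 1 of 5 small heat shock proteins, and of the 3 heat shock factors and regulators Hsbp1, which encodes a protein that binds HSF1, passed lower with -0.47 (0.0372). Hsbp1 no longer passed without -R replicate 1, -R replicate 2 or R+LE replicate 2 (-0.26 on the log2 scale), nor with no filter (limma adjusted p = 0.124). The TRiC count was 0 without -R replicate 1, 1 without -R replicate 2, 2 without R+LE replicate 1 and 11 without R+LE replicate 2. Leaving out -R replicate 1 also gave 0 for the mitochondrial list, 4 for partners of HSP90 and HSP70, 0 for J-domain partners and 1 for ER chaperones. Leaving out -R replicate 2 gave 0, 4 and 2 for the first 3 of these lists. Without R+LE replicate 1 the J-domain count was 2, and without R+LE replicate 2 the mitochondrial count was 2 and the ER count 6.

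The genes whose pattern over the 6 libraries was most like that of Hspd1, the member with the smallest adjusted p, were Psmd10 (Pearson r = 0.99996 on log2(RPKM + 0.5)), Abt1 (0.999) and Tarsl2 (0.998), as a description over 6 libraries that fall into the same 3 conditions for every gene. Psmd10, a proteasome assembly chaperone, was at 16.2 and 16.7 RPKM in -R, 62.1 and 54.9 RPKM in +R and 42.8 and 32.4 RPKM in R+LE. By the same measure Hspe1 ranked 312 and Hspa8 1215 among the other tested genes, while Hspa1a ranked 9137.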

How the data were processed

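Groups and replicate numbers of the RNA-seq libraries came from their labels. The authors aligned paired 100 bp reads to mm10 (the paper names TopHat, the submitters' processing notes HISAT2), counted exon reads of 1 transcript per gene on both strands with HOMER, and deposited RPKM values, under titles that say FPKM. How reads matching several places were counted is not given in the sources used here. Multiplying by the deposited transcript lengths gave whole reads for all values checked (tolerance 0.2 read), and so the depth. A date format had replaced 26 symbols, which were restored from transcript identifiers.

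Genes averaging at least 0.5 RPKM were fitted as log2(RPKM + 0.5) in limma 3.58.1 (R 4.3.3), with a mean per group, a variance trend and Benjamini-Hochberg adjustment. The code was tested on simulated data. The members and lists were chosen with earlier results of these data known. All 10 members were named, plus up to 3 passing genes each way from each list and the 3 genes most like the leading member. Shared 100 nt stretches and exon overlaps came from GENCODE M21 and promoters from RefSeq. Alternatives covered the pseudocount (0.1, 1), the filter (none, 1 RPKM), the trend, fitting each pair of groups alone, median centring, quantile scaling, a replicate block, voom on recovered reads and leaving out each library. Reads on genes other than Rn45s as the total, and the settings applied to each list and its named genes, were added after seeing the data.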

Additional observations from a re-analysis of the deposited data

How the results depend on the processing

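With 2 libraries a group, leaving out 1 leaves a lone library that is assumed to vary like the other groups. Test results near the threshold moved with the settings. Leaving out a library of the group not compared left the log2 change as it was, so only the spread estimate and the adjustment over all genes differed. It stayed at -0.57 for Hspe1 with LE without either -R library. For Hsp90ab1 with RANKL it stayed at 0.38 without either R+LE library. The cause of the other moves was not tested. Of the member estimates recomputed, 428 kept their direction and side of the threshold. Another 31 no longer passed the test, 27 newly passed it and 24 changed sign. No sign change was for a value that had passed. Named list genes were recomputed only where they had passed, so that none could newly pass. Of their values 936 still passed and 81 no longer did. Hspd1 and Hspe1 between +R and -R, and Hspd1 between R+LE and -R, passed under every alternative. The fall of Hspe1 with LE had an adjusted p of 0.139 with no filter and 0.122 with only the compared groups.

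The number of members that passed with no filter was 3 between +R and -R, 2 between R+LE and -R and 0 between R+LE and +R, and over single libraries left out it ranged from 2 to 7, 1 to 5 and 0 to 2. In R+LE against +R it was 2 at a minimum mean of 1 RPKM, 0 with only the compared groups, 4 after centring, 4 after quantile normalization, 2 by voom and 3 with the total that left out Rn45s. Among all genes, 581 passed in that comparison with no filter, against 1397. In R+LE against -R, 3974 passed, or 2455 to 4047 with a library left out (2455 and 2611 without -R replicates 1 and 2). With the total that left out Rn45s the median over all genes in that comparison moved from -0.01 to 0.0993, and the split from 1773 higher and 2201 lower to 2895 and 1854. The other lists together had 35 genes past the test there, or 56 after quantile normalization, 56 without Rn45s and 18 to 49 with a library left out. In R+LE against +R they had 9, or 3 with no filter, 14 by voom and 6 to 18 with a library left out.

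Replicate numbers were not shown to pair the samples, as the deviations of same-numbered libraries correlated at -0.046, 0.107 and 0.249 for the 3 pairs of groups. With a replicate block 2 members (Hspd1 and Hspe1) and 16 list genes passed between R+LE and +R, and 5 members between R+LE and -R.

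Sign changes between R+LE and -R gave Dnajb1 -5.9e-05 at a pseudocount of 0.1, Hsf1 0.0015 after centring, 0.015 after quantile normalization and 0.063 without Rn45s, Hspa1a 0.024 without Rn45s, and Hspa1b 0.025, 0.035 and 0.087 under the same 3. In R+LE against +R, Hsp90aa1 was 0.0061 after centring and 0.0068 after quantile normalization, and Hspa8 0.035, 0.16 and, without Rn45s, 0.029. With single libraries left out, Dnajb1 ranged from -0.0063 to 0.31 (+R against -R), -0.22 to 0.22 (R+LE against -R) and -0.37 to 0.068 (R+LE against +R). Hsf1 ranged from -0.11 to 0.0031 and Hspa1b from -0.091 to 0.033 (R+LE against -R), and Hsp90aa1 from -0.17 to 0.085 and Hspa8 from -0.18 to 0.15 (R+LE against +R).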
